A study of Mus musculus with 18 samples.

Results

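The tubulin genes of the mouse liver were followed across 6 groups that combined 3 SIRT1 genotypes with 2 diets. Microtubules are hollow polymers of alpha- and beta-tubulin dimers, which carry vesicles and organelles through the cell and build the mitotic spindle. The mouse genome encodes several alpha-tubulins (Tuba genes) and beta-tubulins (Tubb genes), whose proteins are very alike in sequence and differ mostly at the C-terminal tail. In hepatocytes, microtubules are the tracks along which secreted proteins and lipoproteins leave the cell, and free tubulin dimers are known to lower the stability of tubulin mRNA through TTC5, an autoregulation that acts on many tubulin transcripts together. The members were a list of 10 genes, 5 alpha-tubulins (Tuba1a, Tuba1b, Tuba1c, Tuba4a, Tuba8) and 5 beta-tubulins (Tubb2a, Tubb2b, Tubb4b, formerly Tubb2c, Tubb5 and Tubb6). A probe was kept where its detection p was under 0.05 in at least 2 of 18 libraries, and the brightest kept probe stood for its gene. In all, 9 of the 10 genes had a named probe and 7 were kept, of 8950 genes kept on the array. Tuba1c had no named probe and was not analysed here.

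The data were Illumina MouseRef-8 v2 beadchip signals of liver RNA, with 1 library for each mouse. C57BL/6J mice carried 2, 1 or 0 working copies of Sirt1 in the whole body (SIRT1+/+, SIRT1+/- and SIRT1-/-), so that loss of the gene was not limited to the liver or to adult life. From an age of 2 to 5 months they ate ad libitum (AL) or a diet with 40% caloric restriction (CR), were caged singly, and were sampled at 13 to 16 months. The AL mice had standard chow and the CR mice a fortified one, so the amount and the make of the food cannot be told apart. AL fed were 3 SIRT1+/+, 2 SIRT1+/- and 4 SIRT1-/- mice, whereas CR had 3 mice of every genotype. The comparison of diets within each genotype asks what restriction, with its fortified chow, changed in the liver, and whether that depended on SIRT1. Values are scaled log2 signals, the z-score of the log signal on each array multiplied by 1.84, the mean spread of an array. Thus 0 is the mean of an array, and 1 unit is a doubling on an array of that mean spread. The spread of single arrays ran from 1.70 to 2.00, so the fold changes given here are those of scaled signals.

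The labels call every mouse male, whereas the study's methods name both sexes. The female transcript Xist was detected in 7 libraries, 2 AL and 5 CR, and the Y-linked Eif2s3y in the other 11. The AL libraries with Xist were SIRT1-/- only, and the CR ones came from every genotype. Sex was thus mixed with diet within SIRT1+/+ and SIRT1+/- mice, and with genotype on AL. The Sirt1 probe read 217 to 610 for SIRT1+/+, 188 to 343 for SIRT1+/- and 184 to 547 for SIRT1-/- livers, so it did not separate the genotypes. Its place relative to the deleted part of the gene was not known here, and it checks no label. The library AL SIRT1-/- replicate 4 stood apart, with a signal of 24714 for Lcn2, an acute-phase protein, against 90.5 to 3627 in the other 17 libraries. All labels were kept, and the library labelled AL SIRT1-/- replicate 1 was taken for SIRT1+/- in 1 alternative only. Arrays had 10726 to 11386 detected probes. The spread of log2 signal on an array was 1.70 to 1.91 in AL and 1.76 to 2.00 in CR libraries, and the CR arrays were numbered before the AL arrays in the deposited table, so any array order and the diet cannot be told apart. Hepatocyte markers were measured for 8 of the 10 listed genes, and Alb, Apoa1 and Ttr were detected in 14, 18 and 18 libraries. Tat and Fgb were detected in 0 and 1. No cell type was separated, so in this bulk tissue fewer cells of a type and less RNA per cell cannot be told apart.

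The upstream sequences of 5 members are shown, those of the 4 with a called fall on CR and a window in the table (Tuba1b, Tubb4b, Tuba1a, Tuba4a), and that of Tubb5, which was not called, for comparison. Each is the 250 bases before an annotated transcription start, 5′ to 3′ on the gene's own strand, from RefSeq (GRCm38.p6). For Tuba4a this start is an internal one, as its window lies inside the span of the gene (chr1:75214972-75221261). The windows lie at chr15:98934391-98934640 (Tuba1b, minus strand), chr2:25224703-25224952 (Tubb4b, minus strand), chr15:98953502-98953751 (Tuba1a, minus strand), chr1:75219295-75219544 (Tuba4a, minus strand) and chr17:35838302-35838551 (Tubb5, minus strand). Capitals mark the CCAAT letters bound by NF-Y, the core of a GC box (GGGCGG) and the letters of a TATA box (TATAAA), each on either strand.
Tuba1b: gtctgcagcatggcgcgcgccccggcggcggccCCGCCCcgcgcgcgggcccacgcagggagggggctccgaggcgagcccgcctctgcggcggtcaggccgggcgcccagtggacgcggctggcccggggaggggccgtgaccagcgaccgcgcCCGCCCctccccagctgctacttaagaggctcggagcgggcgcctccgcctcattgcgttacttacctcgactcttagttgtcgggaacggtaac
Tubb4b: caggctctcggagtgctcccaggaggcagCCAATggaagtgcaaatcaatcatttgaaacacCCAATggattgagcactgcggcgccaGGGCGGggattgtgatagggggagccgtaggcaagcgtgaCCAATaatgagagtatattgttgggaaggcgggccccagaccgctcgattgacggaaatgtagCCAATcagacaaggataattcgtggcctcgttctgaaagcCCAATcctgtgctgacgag
Tuba1a: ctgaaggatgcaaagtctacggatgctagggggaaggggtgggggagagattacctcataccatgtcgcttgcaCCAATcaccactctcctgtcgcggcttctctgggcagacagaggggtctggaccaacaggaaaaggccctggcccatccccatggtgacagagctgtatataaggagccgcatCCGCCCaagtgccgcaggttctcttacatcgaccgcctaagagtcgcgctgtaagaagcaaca
Tuba4a: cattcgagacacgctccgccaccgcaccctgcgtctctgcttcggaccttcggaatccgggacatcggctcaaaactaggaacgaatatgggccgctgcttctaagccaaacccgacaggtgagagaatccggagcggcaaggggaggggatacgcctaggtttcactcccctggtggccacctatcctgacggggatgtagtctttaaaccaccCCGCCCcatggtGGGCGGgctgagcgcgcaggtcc
Tubb5: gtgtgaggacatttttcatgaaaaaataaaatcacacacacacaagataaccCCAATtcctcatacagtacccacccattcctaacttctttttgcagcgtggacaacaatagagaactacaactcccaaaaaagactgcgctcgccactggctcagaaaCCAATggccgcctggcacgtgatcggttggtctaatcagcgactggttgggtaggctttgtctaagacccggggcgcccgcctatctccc

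CCAAT occurred 5 times before Tubb4b, 2 times before Tubb5, 1 time before Tuba1a and 0 times before Tuba1b and Tuba4a. The GC box core occurred 2 times before Tuba1b and Tuba4a each, 1 time before Tubb4b and Tuba1a each, and 0 times before Tubb5, and the TATA box letters in none of these 5 windows. The motifs do not overlap in these windows. Of 8 members with a window, 4 held CCAAT, 5 the GC box core and 1, Tubb2a, the TATA box letters, against 33.8%, 32.7% and 12.4% of the 32851 windows of the same length in the table. Of the 4 members shown for a called fall, CCAAT was thus in the windows of 2, Tubb4b and Tuba1a.

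Restriction was accompanied by lower tubulin signals. Averaged over the 3 genotypes, Tuba1b, Tubb2b, Tubb4b and Tuba1a fell, by 1.55-fold for Tuba1a to 3.04-fold for Tubb2b on the scaled signal. Before scaling, median signals on AL and CR were 799 and 407 for Tubb2b and 6651 and 4452 for Tuba1b. They were 1963 and 1337 for Tubb4b, and 123 and 97.0 for Tuba1a. Tuba4a fell too, and was not above background in 1 group. With that group set to the detection level, its estimated fall was 1.24-fold. Tubb5 and Tubb6 did not pass the test. Thus 5 of the 7 kept members were called lower and 0 higher (limma, adjusted p under 0.05 over 8950 genes), where 3.63% of all genes tested were called lower and 6.41% higher. The median change of the 7 was -0.63, against 0.03 over all genes. Because members were selected with earlier results of these data known, and because Tuba1b, Tubb2b and Tubb4b were among genes the study itself singled out on these samples, this count is not independent evidence of the direction. In 6 of the 7, all except Tubb6, the mean was lower on CR in each genotype, as in 22.6% of all genes. The AL and CR libraries, 9 against 9, overlapped in all 7, and 0.101% of all genes were apart with CR lower.

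**Figure D1:**
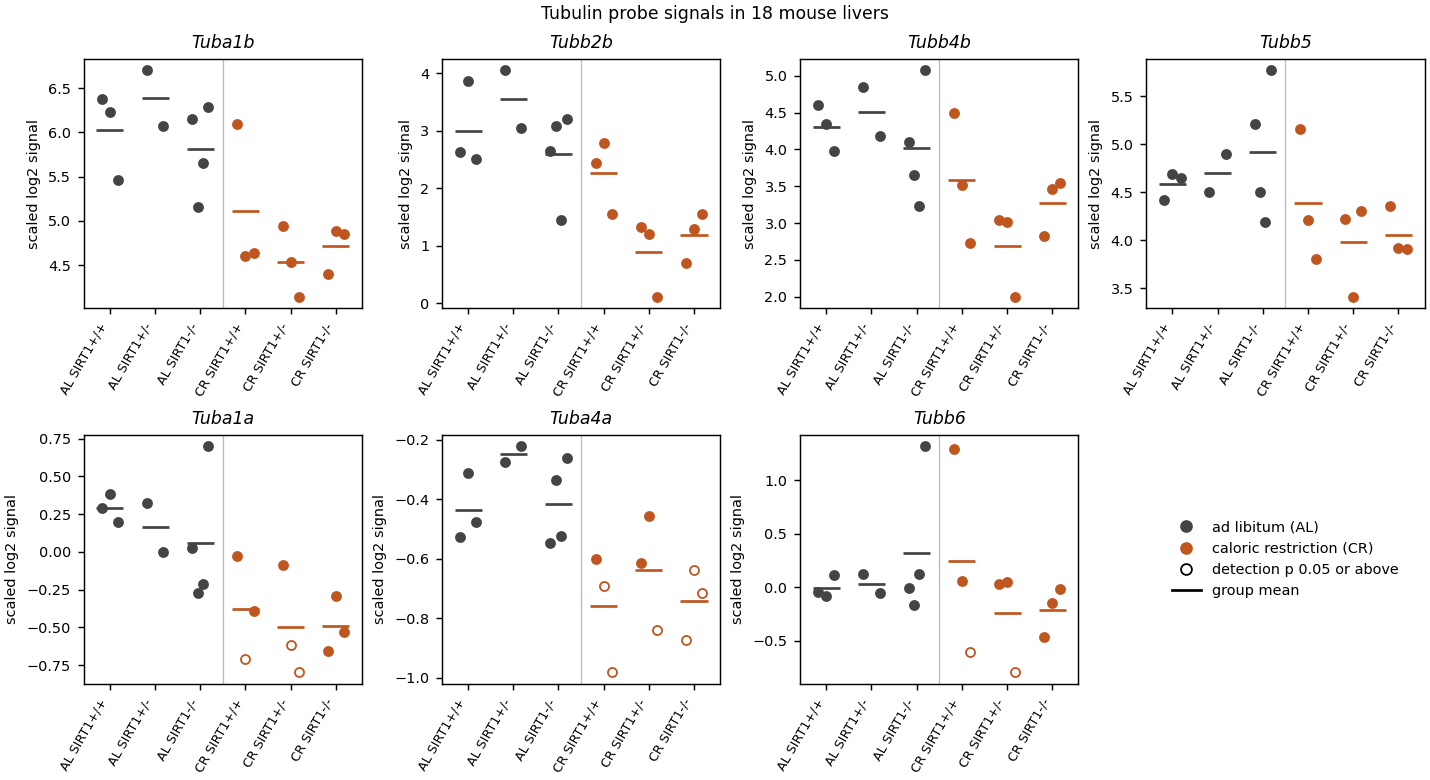
Scaled log2 signal (y axis, log2 units, 0 is the array mean) of the 7 kept tubulin genes in each of the 18 livers, by diet and genotype; points are mice, open points have a detection p of 0.05 or above, and lines are group means. The CR means lie below the AL mean of the same genotype in 6 of the 7 genes, and the spread within groups is wide for Tubb6.

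Among the alpha-tubulins, Tuba1b, the form most cells express most, had the brightest probe of the 7. On AL its scaled log2 signal read 6.38, 6.23 and 5.46 for SIRT1+/+, 6.70 and 6.08 for SIRT1+/-, and 6.15, 5.16, 5.65 and 6.29 for SIRT1-/- livers. On CR it read 6.09, 4.61 and 4.64 for SIRT1+/+, 4.94, 4.53 and 4.14 for SIRT1+/-, and 4.40, 4.88 and 4.85 for SIRT1-/- livers. Of the 9 CR livers, only CR SIRT1+/+ replicate 1 reached the AL levels, and AL and CR did not overlap in SIRT1+/- and SIRT1-/- mice. The averaged change was -1.29 (SE 0.23), or 2.44-fold lower, with an adjusted p of 0.00451. With no scaling of the spread, only the array median subtracted, it was -0.88 (adjusted p = 0.0242).

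Tuba1a, the alpha-tubulin best known from neurons, was dim, with signals of 58.8 to 234, and was detected in 9 AL and 6 CR livers. It read 0.29, 0.38 and 0.20 for AL SIRT1+/+, 0.32 and close to 0 for AL SIRT1+/-, and 0.02, -0.27, -0.21 and 0.70 for AL SIRT1-/- livers. On CR it read -0.03, -0.71 and -0.39 for SIRT1+/+, -0.08, -0.61 and -0.80 for SIRT1+/-, and -0.66, -0.30 and -0.53 for SIRT1-/- livers. Within each genotype every CR liver was below every AL liver. Averaged over genotypes it changed by -0.63 (SE 0.14, adjusted p = 0.0149), and it was -1.08 with neqc, which models and removes the background.

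Tuba4a, an alpha-tubulin whose gene ends without a codon for a C-terminal tyrosine, was the dimmest kept member, detected in 9 AL and 3 CR livers. It read -0.53, -0.31 and -0.48 for AL SIRT1+/+, -0.28 and -0.22 for AL SIRT1+/-, and -0.55, -0.33, -0.52 and -0.26 for AL SIRT1-/- livers. On CR it read -0.60, -0.69 and -0.98 for SIRT1+/+, -0.62, -0.46 and -0.84 for SIRT1+/-, and -0.87, -0.64 and -0.71 for SIRT1-/- livers. AL and CR did not overlap within any genotype. None of the 3 CR SIRT1-/- arrays measured it above background, so there the size of the fall is not resolved. Against the level at which probes were detected the estimate was 1.15-fold, with no allowance for the spread between mice. The fitted change in SIRT1-/- livers was not called (adjusted p = 0.238, limma). The fitted averaged change was -0.35 (SE 0.08, adjusted p = 0.0147, limma) and includes the CR SIRT1-/- group, so its size is not resolved either. With that group set to the detection level it was estimated at 1.24-fold lower, again with no allowance for the spread between mice. Undetected libraries of CR SIRT1+/+ (1 of 3 detected) and CR SIRT1+/- (2 of 3 detected) kept their measured values. With neqc the averaged change was -0.62 (adjusted p = 0.00478), and with array medians only -0.33 (adjusted p = 0.0174). Before scaling, the median Tuba4a signal was 89.3 on AL and 84.8 on CR. The median array signal was 63.7 on AL and 80.1 on CR, so most of this fall is relative to brighter CR arrays. Tuba8, an alpha-tubulin of testis and muscle, was detected in 1 library, CR SIRT1+/+ replicate 1, and lay just outside the threshold. Its probe differed by 0.42 on the scaled log2 scale, CR above AL, with 17 of the 18 libraries not above background.

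Among the beta-tubulins, Tubb2b had the largest change. It read 2.63, 3.86 and 2.50 for AL SIRT1+/+, 4.05 and 3.04 for AL SIRT1+/-, and 2.65, 3.08, 1.45 and 3.20 for AL SIRT1-/- livers. On CR it read 2.43, 2.79 and 1.55 for SIRT1+/+, 1.33, 1.20 and 0.11 for SIRT1+/-, and 0.70, 1.29 and 1.55 for SIRT1-/- livers. AL and CR were apart in SIRT1+/- mice and overlapped in the other genotypes. Over the 3 genotypes it changed by -1.61 (SE 0.30, adjusted p = 0.005, limma), and by -1.39 with array medians only (adjusted p = 0.00909, limma).

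Tubb2b, a beta-tubulin best known from the developing brain, is represented by 6 probes that disagree. The brightest ran from 107 to 1572 in signal and carried the change. The other 5 had highest signals of 51.4 to 125, were detected in 0, 0, 3, 14 and 15 libraries, and had averaged changes of -0.06 to 0.05. With the mean of the kept probes in place of the brightest, the change was -0.39 (adjusted p = 0.0255). Which transcripts each probe captures was not tested, and its near-identical paralog Tubb2a was detected in 0 libraries by its own probe.

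**Figure D2:**
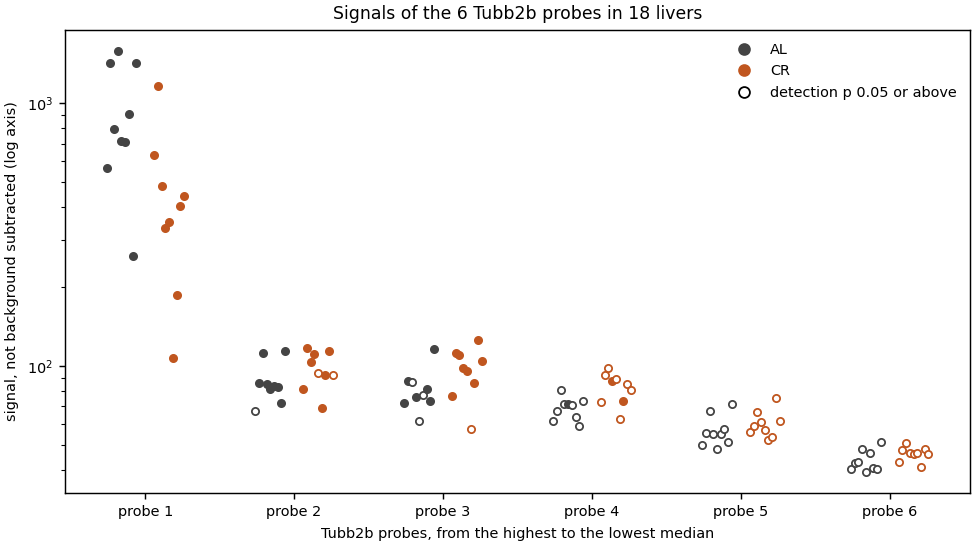
Signal without background subtraction (y axis, log scale) of the 6 Tubb2b probes in the 9 AL and 9 CR livers; points are mice and open points have a detection p of 0.05 or above. Probe 1 runs from 107 to 1572 and is lower on CR, whereas the other 5 stay at or below 125 on both diets.

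Tubb4b, a beta-tubulin found in most tissues, followed Tuba1b. It read 4.60, 4.35 and 3.98 for AL SIRT1+/+, 4.84 and 4.18 for AL SIRT1+/-, and 4.11, 3.65, 3.24 and 5.07 for AL SIRT1-/- livers. On CR it read 4.50, 3.52 and 2.73 for SIRT1+/+, 3.04, 3.02 and 2.00 for SIRT1+/-, and 2.83, 3.46 and 3.54 for SIRT1-/- livers. AL and CR were apart in SIRT1+/- mice and overlapped in the other genotypes. The averaged change was -1.10 (SE 0.27), or 2.14-fold lower, with an adjusted p of 0.0219. The call was lost with array medians only (-0.80, adjusted p = 0.0798) and with the Y-linked signal as a covariate (-1.04, adjusted p = 0.0603).

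Tubb5, a beta-tubulin of dividing and most other cells, read 4.42, 4.69 and 4.65 for AL SIRT1+/+, 4.50 and 4.90 for AL SIRT1+/-, and 5.21, 4.50, 4.19 and 5.77 for AL SIRT1-/- livers. The CR livers read 5.16, 4.21 and 3.80 for SIRT1+/+, 4.22, 3.41 and 4.30 for SIRT1+/-, and 4.35, 3.92 and 3.90 for SIRT1-/- livers. CR SIRT1+/+ replicate 1 lay above 7 of the 9 AL livers, and the diets overlapped. The averaged change was -0.59 (SE 0.22, 95% confidence interval -1.07 to -0.11), with an adjusted p of 0.102. It was -0.72 (adjusted p = 0.0397) without CR SIRT1+/+ replicate 1 and -0.58 (adjusted p = 0.0251) with array weights, against -0.28 (adjusted p = 0.434) with array medians only and -0.38 (adjusted p = 0.273) with the Y-linked covariate. Before scaling, its median signal was 2391 on AL and 2554 on CR.

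Tubb6, a divergent beta-tubulin induced in regenerating muscle, was dim and detected in 9 AL and 7 CR livers. It read -0.04, -0.08 and 0.12 for AL SIRT1+/+, 0.12 and -0.05 for AL SIRT1+/-, and -0.0035, -0.17, 0.12 and 1.32 for AL SIRT1-/- livers. In the CR livers it read 1.29, 0.06 and -0.60 for SIRT1+/+, 0.03, 0.05 and -0.79 for SIRT1+/-, and -0.46, -0.14 and -0.02 for SIRT1-/- livers. AL SIRT1-/- replicate 4 and CR SIRT1+/+ replicate 1 were far above the other 16. Its averaged change was -0.18 (SE 0.24, 95% confidence interval -0.70 to 0.34, adjusted p = 0.663), and leaving out these libraries gave -0.07 (the AL one) or -0.36 (the CR one).

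Taken genotype by genotype, no member passed the adjusted test, with smallest adjusted p of 0.228 for SIRT1+/+, 0.227 for SIRT1+/- and 0.186 for SIRT1-/- livers (limma), where 0.391%, 0.0223% and 0% of all genes were called lower. At an unadjusted p under 0.05, 3 of the 7 members were lower for SIRT1+/+, 5 for SIRT1+/- and 5 for SIRT1-/- livers, where 5.9%, 3.25% and 6.48% of all genes were. The AL and CR libraries of a genotype did not overlap, with CR lower, for 2, 6 and 3 of the 7 members, against 7.87%, 12.6% and 5.72% of all genes. Tuba1a and Tuba4a were among these in all 3 genotypes. The largest estimates were those in SIRT1+/- mice, -2.66 (SE 0.56) for Tubb2b, -1.85 (SE 0.44) for Tuba1b and -1.82 (SE 0.52) for Tubb4b, from 2 AL and 3 CR livers. Taking AL SIRT1-/- replicate 1 for SIRT1+/-, they were -2.36, -1.77 and -1.69, and the SIRT1-/- estimates of these genes were -1.39, -0.99 and -0.71.

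**Figure D3:**
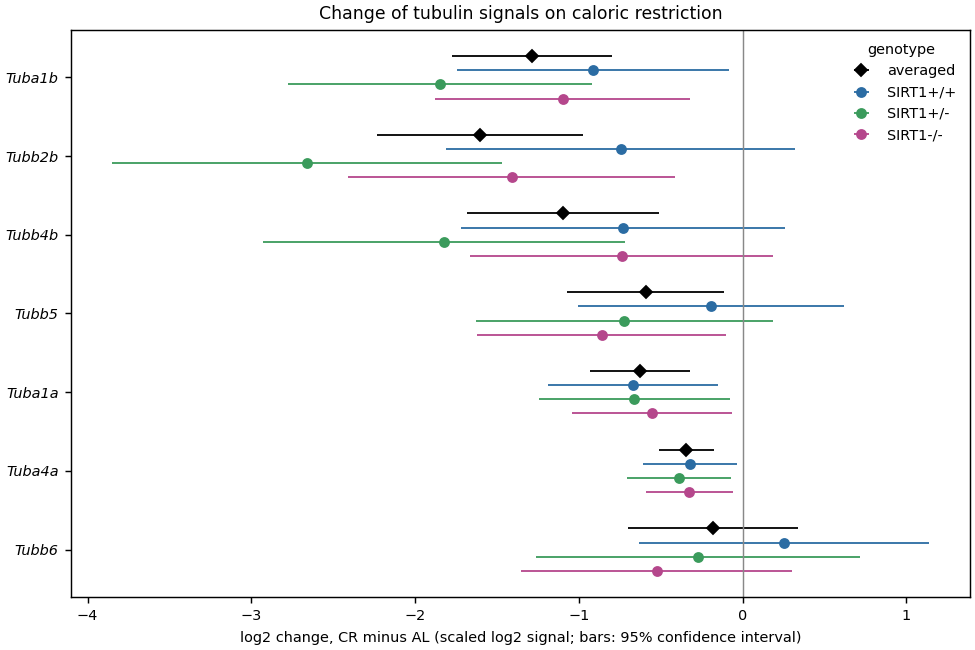
Log2 change on restriction (x axis, CR minus AL, scaled log2 signal) of the 7 kept tubulin genes, averaged over the genotypes (diamonds) and in each genotype (circles), with 95% confidence intervals from the limma fit. The intervals of the genotypes overlap for each gene, and the averaged interval of 6 genes lies below 0, Tubb5 included, whose adjusted p of 0.102 did not pass.

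The change on CR was not shown to differ between genotypes. None of the 7 members was called in the 3 tests of a difference between genotypes, where 0.0223%, 0% and 0% of all genes were called. The difference between SIRT1+/+ and SIRT1-/- livers was 0.01 for Tubb4b (95% confidence interval -1.35 to 1.36) and 0.19 for Tuba1b (-0.95 to 1.32), so differences of more than a doubling remain possible. For Tubb2b the change in SIRT1+/+ minus that in SIRT1+/- was 1.91 (SE 0.75, unadjusted p = 0.022, adjusted p = 1, limma), the only member with an unadjusted p under 0.05 in these tests, where 1.17% of all genes were below it in that comparison.

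None of the 7 members was called between genotypes on the same diet. On AL the SIRT1-/- minus SIRT1+/+ differences ran from -0.40 for Tubb2b to 0.33 for Tubb5 (adjusted p from 0.976 to 0.999), where 0.38% of all genes were called. For the other 5 such comparisons the background was 0.246% (SIRT1-/- minus SIRT1+/- on AL) or 0%. On CR the Tubb2b mean was 2.25 ± 0.64 (SD, n = 3) with SIRT1+/+, 0.88 ± 0.67 (SD, n = 3) with SIRT1+/- and 1.18 ± 0.44 (SD, n = 3) with SIRT1-/- genotype. Its difference from SIRT1+/+ was -1.37 in SIRT1+/- (adjusted p = 0.913, limma) and -1.07 in SIRT1-/- (adjusted p = 0.999, limma).

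The kept members were positively correlated across mice. Across the 18 libraries the Pearson r of the 21 pairs ran from 0.44 to 0.91, with Tuba1b and Tubb4b at 0.91. After each group's mean was removed it ran from 0.21 to 0.88, the highest for Tubb4b and Tubb6. Without AL SIRT1-/- replicate 4 it ran from 0.03 for Tuba4a and Tubb5 to 0.83 for Tuba1b and Tubb4b, so that the lower end rested on this library. These values describe libraries that share an array and its scaling. AL SIRT1-/- replicate 4 was the highest library in 4 of the 7 members and among the top 3 in all 7. At the other end, CR SIRT1+/- replicate 3 was the lowest library in 5 of the 7. Among CR livers, CR SIRT1+/+ replicate 1 had the highest mean of the 7, at 2.69, against 1.16 to 1.97 in the other 8.

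Leaving out AL SIRT1-/- replicate 4, the library that stood apart, left 5 members called lower, and so did leaving out CR SIRT1+/- replicate 3. Without AL SIRT1+/- replicate 1 it was 3, since Tuba1a (adjusted p = 0.0649) and Tubb4b (adjusted p = 0.086) no longer passed. Without CR SIRT1+/+ replicate 1 it was 6, with Tubb5 added. In the 11 libraries with Eif2s3y detected, 7 AL and 4 CR, all 7 estimates stayed below 0, from -0.40 for Tuba4a to -1.75 for Tubb2b, and only Tuba1b (-1.70, adjusted p = 0.0337) was called.

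**Figure D4:**
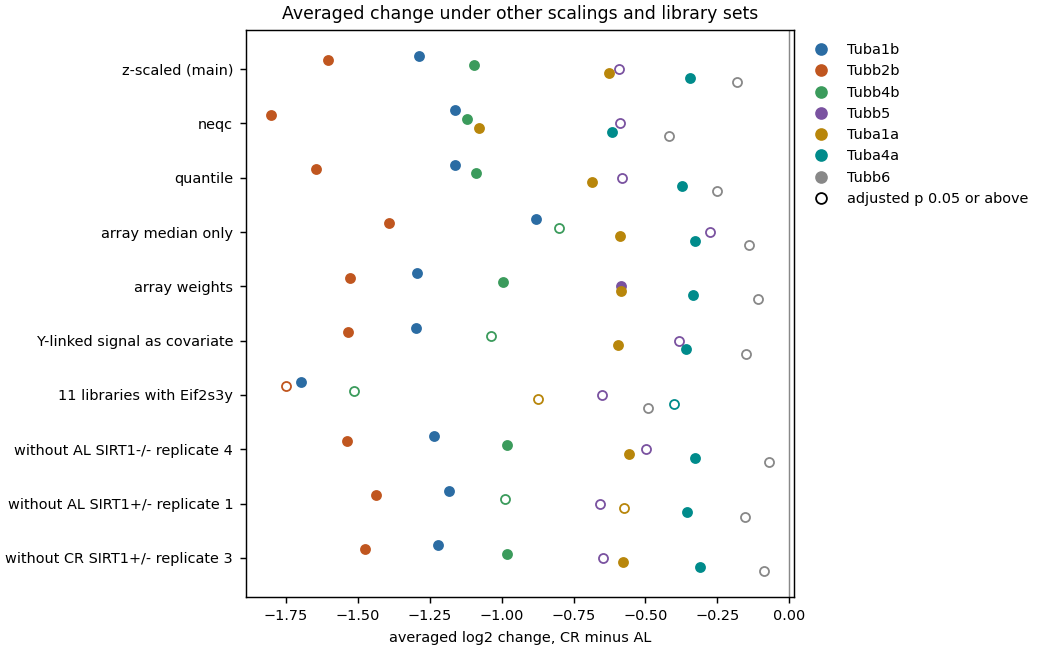
Averaged log2 change on restriction (x axis) of the 7 kept tubulin genes under 4 scalings, with weights or a covariate, and in subsets of the libraries (y axis); filled points have an adjusted p under 0.05. Every point lies below 0, and Tuba1b is filled in each row, whereas Tubb4b is open with array medians only, with the Y-linked covariate, in the 11 libraries with Eif2s3y and without AL SIRT1+/- replicate 1.

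Single marker genes of liver cell types were called on CR, beside 3.63% of all genes lower and 6.41% higher. For 8 measured of 11 listed Kupffer cell and macrophage markers the summed level was 21.7 to 52.7 in AL and 15.6 to 30.5 in CR livers, as a sum of signals relative to each array's mean. Of these, C1qb, a complement subunit made by macrophages, fell by 0.89 on the log2 scale (adjusted p = 0.0378) and the other 7 were not called, with a median change of -0.37 over the 8. The hepatocyte markers summed to 618 to 1552 in AL and 587 to 1525 in CR livers, with 1 of 8 called lower and 1 higher and a median change of -0.30. Those called were Serpina1c at -0.70 (adjusted p = 0.0488, limma) and Tdo2 at 0.32 (adjusted p = 0.0371, limma). Among 6 measured of 9 listed stellate cell markers, Rgs5, a pericyte regulator of G protein signalling, rose by 0.67 (adjusted p = 0.00881), and the other 5 were not called (summed level 56.7 to 74.0 in AL and 57.9 to 107 in CR livers). Among 8 endothelial markers, Lyve1, a hyaluronan receptor, rose by 0.58 (adjusted p = 0.0334), detected in 6 libraries, and the other 7 were not called (51.5 to 71.8 in AL and 41.8 to 65.4 in CR livers). None of 3 measured cholangiocyte markers was called (1.91 to 2.39 and 1.96 to 2.34), and Krt19 was detected in 0 libraries. Neither of the 2 measured lymphocyte markers was called, and of the 9 listed, Ptprc, Cd2 and Cd79a were detected in 0 libraries. At an unadjusted p under 0.05 (limma), 4 of 8 Kupffer cell, 4 of 8 hepatocyte and 1 of 8 endothelial markers were lower. Of all 8950 genes, 1025 were lower. Higher were 1 hepatocyte, 1 stellate cell and 1 endothelial marker, where 1472 of all genes were. The part of these cells in the tubulin changes was not tested.

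Among the other tubulins, 4 of 10 listed were kept and none was called. Tubg1, the gamma-tubulin that nucleates microtubules, changed by -0.31 (SE 0.14, adjusted p = 0.155), Tubb4a by 0.15 (SE 0.08, adjusted p = 0.24), Tubg2 by -0.06 (adjusted p = 0.66) and Tubd1, the delta-tubulin of centrioles, by -0.03 (adjusted p = 0.879). The neuronal Tubb3 and the platelet form Tubb1 were detected in 0 libraries, as were Tuba3a, Tuba3b and Tube1.

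Genes that fold, modify or bind tubulin were mostly not called, beside 3.63% of all genes lower and 6.41% higher. Of 15 measured folding genes, which include the CCT chaperonin, prefoldin and tubulin cofactors, 1 rose and 1 fell, with a median change of -0.06. Those were Tbcd, the cofactor that holds beta-tubulin for dimer assembly (0.30, SE 0.09, adjusted p = 0.0448), and Tbcel, a cofactor-like protein that destabilizes tubulin (-0.38, SE 0.10, adjusted p = 0.0316, but 0.15 in SIRT1-/- livers). Both measured genes of autoregulation were not called, Ttc5, which recognizes nascent tubulin, with -0.02 (adjusted p = 0.93) and Cnot11, a subunit of the deadenylase it recruits, with -0.09 (adjusted p = 0.635). Of 6 measured genes of tubulin modification none was called, with Sirt2, a tubulin deacetylase, at 0.12 (adjusted p = 0.429) and Svbp, the partner of the tubulin-tyrosine carboxypeptidases, at -0.18 (adjusted p = 0.267).

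Single genes rose in 3 further groups, where 6.41% of all genes were called higher and 3.63% lower. Counts of 1 in lists this short are a description and do not set a group apart. Mzt1, a small subunit of the gamma-tubulin ring, rose by 0.39 (SE 0.08, adjusted p = 0.0069), as 1 of 4 measured genes of that complex. Its change was 0.80 (adjusted p = 0.0179) for SIRT1-/-, 0.24 (adjusted p = 0.414) for SIRT1+/+ and 0.14 (adjusted p = 0.827) for SIRT1+/- livers, and the genotypes were not called different. Mapre2, which binds growing microtubule ends, rose by 0.77 (SE 0.13, adjusted p = 0.00367), as 1 of 13 microtubule-associated genes. Kif3a, a kinesin subunit, rose by 0.33 (SE 0.08, adjusted p = 0.0194), as 1 of 20 motor genes. In the actin cytoskeleton, 1 of 14 rose and 2 fell, Cfl1, an actin-severing protein, by 0.34 (adjusted p = 0.046), Myl6, a myosin light chain, by -0.32 (adjusted p = 0.0229) and Arpc4, of the branching complex, by -0.23 (adjusted p = 0.0217). Of 8 measured proliferation genes none was called, with Cdc20 at -0.23 (adjusted p = 0.0741) and Birc5 at 0.14 (adjusted p = 0.314).

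Outside the tubulins, the gene whose level most resembled the mean of the 7 members across 18 libraries was Pelo, a ribosome rescue factor (Pearson r = 0.93). It was followed by Cdc34, a ubiquitin-conjugating enzyme (0.90), Preb (0.88) and Sec22b (0.86), both of transport between the endoplasmic reticulum and the Golgi, Slc25a45, a mitochondrial carrier (0.86), Dhx29, a translation initiation helicase (0.86), Syvn1, a ubiquitin ligase of the endoplasmic reticulum (0.85), and Zdhhc16, a palmitoyltransferase (0.85). Of these 8, Cdc34 (-0.50, adjusted p = 0.0186), Slc25a45 (-0.88, adjusted p = 0.00407) and Syvn1 (-0.60, adjusted p = 0.0255) were called lower on CR. Of all genes, 3.63% were called lower. The 8 were chosen from 8950 genes for likeness to members that were mostly lower on CR. Lower values on CR are therefore part of the choice, and both the r and these calls are a description.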

How the data were processed

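Each library was the liver RNA of 1 mouse on 1 array, and replicates are mice grouped by the sample labels. Signals were extracted by the authors with BeadStudio 3.4.0, and each probe's deposited intensity still holds its background and comes with a deposited detection p-value. The deposited score is the log z-transformation of each array, which the z-scores computed here matched within 5.0e-10. These were multiplied by 1.84, the mean SD of log2 signal. Of 25697 probes, 23978 had 1 gene symbol in the platform annotation, 0 had several and 1719 were unnamed. All 6 group means were fitted in 1 limma model (limma 3.58.1, R 4.3.3) with 13 contrasts, two-sided, adjusted by Benjamini-Hochberg over 8950 genes. The median standard error of the averaged change was 0.105. On simulated data for that contrast with 8950 genes, 91 of 100 changes of size 1 and 98 of 100 of size 2 were called. Of the unchanged genes, 9 were called. The changed genes were drawn at random with independent noise. These shares need not hold for the members, whose standard error reached 0.30 for Tubb2b. Figures were made with matplotlib 3.10.9.

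The members and companion lists were chosen with earlier results of these data known. Named are all measured tubulins, up to 4 called genes for each companion list by size of change (otherwise the 2 of smallest p), and the 8 genes most like the members. Motif counts came from RefSeq windows. Alternatives were neqc (offset 16), quantile scaling, array medians, 2 other probe filters, probe means, smaller fits, array weights, a replicate block, a Y-linked covariate, another group for 1 library, and leaving out each library. The 11-library subset and the fit without AL SIRT1-/- libraries 1 and 4 were added after the data were seen.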

Additional observations from a re-analysis of the deposited data

How the results depend on the processing

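For the averaged effect, between 3 and 6 of the 7 members were called lower when each library was left out, and 1 in the 11 libraries with Eif2s3y detected, against 5 in all. The count was 5 with AL SIRT1-/- replicate 1 counted as AL SIRT1+/-, and 5 without AL SIRT1-/- libraries 1 and 4. It was 4 with array medians only, which moved the median of all genes to 0.15, and 4 with the Y-linked covariate. Array weights gave 6, and called 1 member in SIRT1+/+ (Tuba1a, adjusted p = 0.0448) and 1 in SIRT1+/- livers (Tuba1b, adjusted p = 0.047), against 0 in each. Falls made up 36.2% of all calls, 49.5% with neqc, 47.8% with quantile scaling and 6.47% with array medians, where 1589 genes were called higher and 110 lower against 574 and 325. The other 9 comparisons and CR in SIRT1-/- livers gave 0 calls of members in each alternative.

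Signs turned only for genes that were not called. Tubb5 in SIRT1+/+ livers was 0.12 with array medians, 0.18 with the Y-linked covariate and, with 1 library left out, ran from -0.58 to 0.10 (0.10 without CR SIRT1+/+ replicate 3), against -0.19. Tubb6 ran from -0.27 (without CR SIRT1+/+ replicate 1) to 0.68, against 0.25 in SIRT1+/+ livers, and from -0.42 to 0.0056 (without CR SIRT1+/- replicate 3), against -0.27 in SIRT1+/- livers. The cause was not tested.

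Replicate numbers were not used as pairs. Of 8 same-numbered AL and CR pairs, 2 had deviations that correlated above 0.1 (r from -0.18 to 0.27). Of 19 pairs with different numbers it was 4 (r from -0.22 to 0.20). Deviations from the mean of so few mice depend on each other, so this cannot settle whether samples were paired. With the replicate block, 5 members were called for the averaged effect and 0 in every other comparison. With 2 to 4 mice in a group and dim probes for Tuba1a, Tuba4a and Tubb6, small changes could not be resolved.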
